A study of Mus musculus with 2 samples.

Results

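The genes described are 66 protein-coding axon guidance genes of the mouse, 34 for ligands and 32 for receptors, taken by gene symbol from the 20807 protein-coding genes annotated on chromosomes 1 to 19. They comprise 20 semaphorins of classes 3 to 7, 7 ephrins, 3 Slits and 4 netrins on the ligand side. The receptor side holds 7 plexins, 2 neuropilins, 14 Eph receptors, 4 Robo receptors, 4 UNC5 receptors and Dcc. The rule itself uses no measured value. Members of these families on the X chromosome were not analysed here.

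The assay was DNase-seq, which maps accessible chromatin by sequencing the ends that the nuclease DNase I leaves where nucleosomes do not shield the DNA. The tissue was hippocampus, labelled as a layer of hippocampus, from male B6CASTF1/J mice aged 10 days. These mice are first-generation hybrids of C57BL/6J and CAST/EiJ, and carry no engineered allele or treatment according to the labels. There was 1 group of 2 libraries, given as biological replicates 1 and 2, and no second condition, so the comparisons below set the guidance genes beside all coding genes and one library beside the other. Each library came from its own tissue sample, described as 3 males, and both carry the same donor label. Differences between the replicates therefore describe only these 2 samples, and no p-value was computed. In bulk tissue, fewer cells with an open site and less opening per cell cannot be told apart.

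Guidance cues steer growing axons by attraction or repulsion at the growth cone, the motile tip of the axon. Semaphorins signal through plexins, with neuropilins as co-receptors for most secreted class 3 members. Ephrins bind Eph receptor tyrosine kinases on neighbouring cells, Slits bind Robo receptors, and netrins bind DCC and UNC5 receptors, which mediate attraction and repulsion respectively. In the hippocampus the same proteins are known for guiding mossy fibre, commissural and entorhinal projections and for shaping dendritic spines and synapses after birth.

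A gene was called open in a library when a listed accessible region overlapped the 1000 bp on either side of any of its annotated transcript starts. The value given per gene is the highest region height found there, a signal value deposited per region whose unit is not stated, and pairs of heights give replicate 1 first. Replicate 2 held more regions, 72347 against 53049 on chromosomes 1 to 19, and 46876 regions of replicate 1 overlapped one of replicate 2. How deeply each library was sequenced is not stated in the sources. Markers of the labelled tissue were open: 4 of 4 pan-neuronal genes, 3 of 4 pyramidal neuron genes, 2 of 3 dentate granule cell genes and 3 of 3 CA3 genes in both libraries, although only 1 of 3 CA1 genes was. Among genes of other cells, 0 of 4 microglial and 0 of 3 endothelial or pericyte genes were open in both libraries, though 3 of the microglial and 1 of the vascular genes were open in one of them, and the liver and muscle genes were open in neither. Glial genes were partly open, 2 of 5 of the oligodendrocyte lineage and 1 of 4 astrocyte genes in both libraries, the latter being Gfap at 3.00 and 4.24. The other 3 astrocyte genes were each open in 1 library only. Of 3 interneuron genes 1 was open in both libraries and the other 2 in replicate 2 only. Of 3 cerebellar or hindbrain genes 1 was open in both libraries, En2 at 0.591 and 0.869. The part of these cells in the values of the guidance genes was not tested.

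The start regions that stood highest among ligands and among receptors, by the mean of both libraries, are shown as the upper end of the members, not as typical promoters. The first is at Ephb3, a receptor tyrosine kinase for B-class ephrins, at chr16:21204455-21204754 of mm10 on the plus strand, ending at the base before the annotated start. The second is at Sema4c, a membrane-bound semaphorin that binds plexin-B receptors, at chr1:36557141-36557359 on the minus strand, downstream of the nearest coding start and outside annotated exons. A start of another gene, D430040D24Rik, lies within 1000 bp of the highest Sema4c region of replicate 2. Capitals mark the footprints, short stretches protected from cutting that are usually bound by protein, listed for replicate 1 and overlapped by one in replicate 2. Bases are those of the C57BL/6J reference, so CAST/EiJ differences are not shown.
Ephb3: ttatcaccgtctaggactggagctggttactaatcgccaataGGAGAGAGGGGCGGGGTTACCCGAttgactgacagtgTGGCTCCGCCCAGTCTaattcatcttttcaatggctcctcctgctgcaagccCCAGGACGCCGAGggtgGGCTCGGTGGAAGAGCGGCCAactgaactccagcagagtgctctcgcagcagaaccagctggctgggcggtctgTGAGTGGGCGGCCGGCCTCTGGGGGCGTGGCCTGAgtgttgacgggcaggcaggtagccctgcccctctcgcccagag
Sema4c: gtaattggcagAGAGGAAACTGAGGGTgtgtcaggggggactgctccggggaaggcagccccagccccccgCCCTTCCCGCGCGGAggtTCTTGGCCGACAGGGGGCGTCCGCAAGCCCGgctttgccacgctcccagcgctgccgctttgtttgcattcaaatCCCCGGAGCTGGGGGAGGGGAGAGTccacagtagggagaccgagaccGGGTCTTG

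Each stretch held 5 such footprints. Several of those in Ephb3 run over GC-rich letters of the SP/KLF type (GGGCGG or its reverse complement), and a CCAAT box and an ASCL E-box (CAGCTG) were also found in that stretch. Sema4c held SP/KLF letters, a CCAAT box and the NFI letters TTGGCA. Such matches describe the letters and do not show which protein bound.

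In total 54 of the 66 guidance genes were open in both libraries (81.8%), against 60.5% of all coding genes. Replicate 1 alone had 54 open members (81.8%) where 60.8% of coding genes were open, and replicate 2 had 61 (92.4%) against 65.3%. None was open in replicate 1 only, 7 in replicate 2 only and 5 in neither. With the longer, more permissive region list 61 members were open in both libraries, against 65.7% of coding genes. The members had a median of 4 annotated starts per gene against 3, which gives them more windows in which a region can fall. Counting only the outermost start of each gene, 48 members (72.7%) and 55.8% of coding genes were open in both libraries. The difference was smaller among long genes. With a locus (gene body plus 10 kb on each side) of 200 kb or more, 90.5% of members and 86.9% of coding genes were open in both. With shorter loci the shares were 77.8% and 59.0%.

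**Figure D1:**
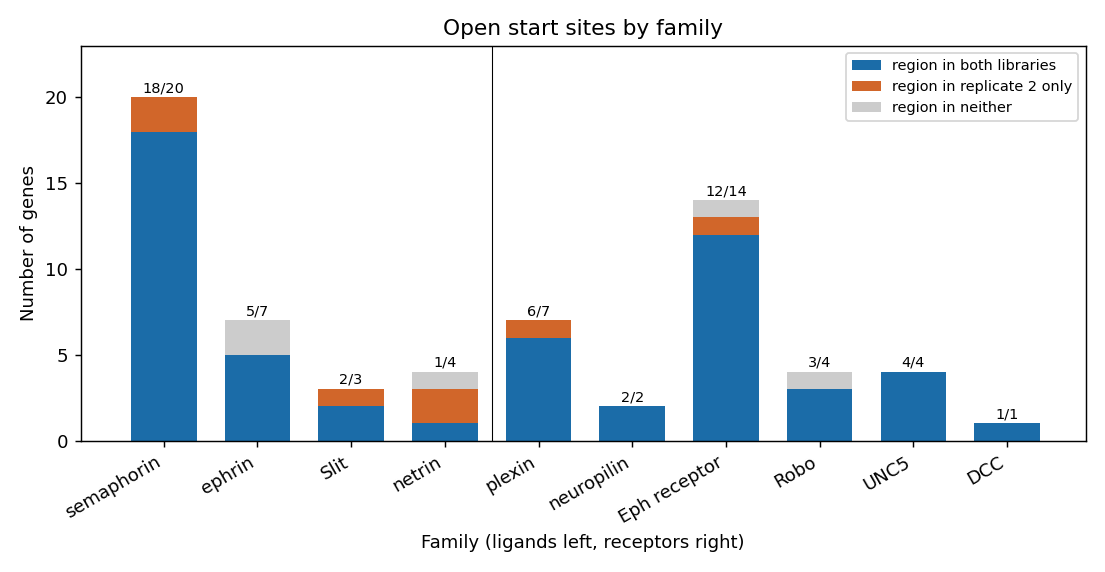
Number of guidance genes per family (vertical axis) with a listed region within 1000 bp of a start in both libraries, in replicate 2 only or in neither; the label on each bar gives genes open in both out of all in the family. The 20 semaphorins and 14 Eph receptors are mostly open in both, while only 1 of 4 netrins is.

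Opening was widespread but low in height. The median height over open members was 1.70 in replicate 1 (54 genes) and 1.99 in replicate 2 (61 genes), where all open coding genes had medians of 2.65 and 3.23. Only 12 of the 54 and 14 of the 61 members stood above those medians, while 23 and 24 lay below the lower quartiles of 1.53 and 1.77. Just 5 and 7 exceeded the upper quartiles of 4.20 and 4.86. Guidance genes are long, and long genes had lower heights: 21 members had a locus (gene body plus 10 kb on each side) of 200 kb or more, with medians of 1.41 and 1.71, where the 1087 coding genes of that size had 1.67 and 2.13. The remaining 45 members had medians of 1.86 and 2.19, against 2.75 and 3.32 for the other 19720 coding genes. The members' median heights were thus below those of coding genes in both length classes and in both libraries. Their starts were not narrower over all lengths. The 48 members open at the outermost start had medians of 936 and 1358 bases listed there by the deposited false discovery rate. The 11600 such coding genes had 929 and 1162.

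The libraries ranked the members alike. Over the 54 genes open in both, the log2 heights gave Pearson's r of 0.958 and a rank correlation (Spearman) of 0.945, a description across genes that share a library and are not independent replicates, and over 12586 coding genes the values were 0.956 and 0.957. Replicate 2 was higher in 50 of the 54, by a median of 0.34 on the log2 scale with an SD of 0.24 between genes, and over coding genes the median was 0.32. The exceptions were Sema4a, Epha4, Nrp2 and Plxna2, which were lower in replicate 2. A region height in replicate 2 was thus generally larger for any gene, and the scaling between libraries is not stated, so the order within a library is the safer reading. In 53 of the 54 the highest region was the same place in both libraries, the exception being Sema4f.

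**Figure D2:**
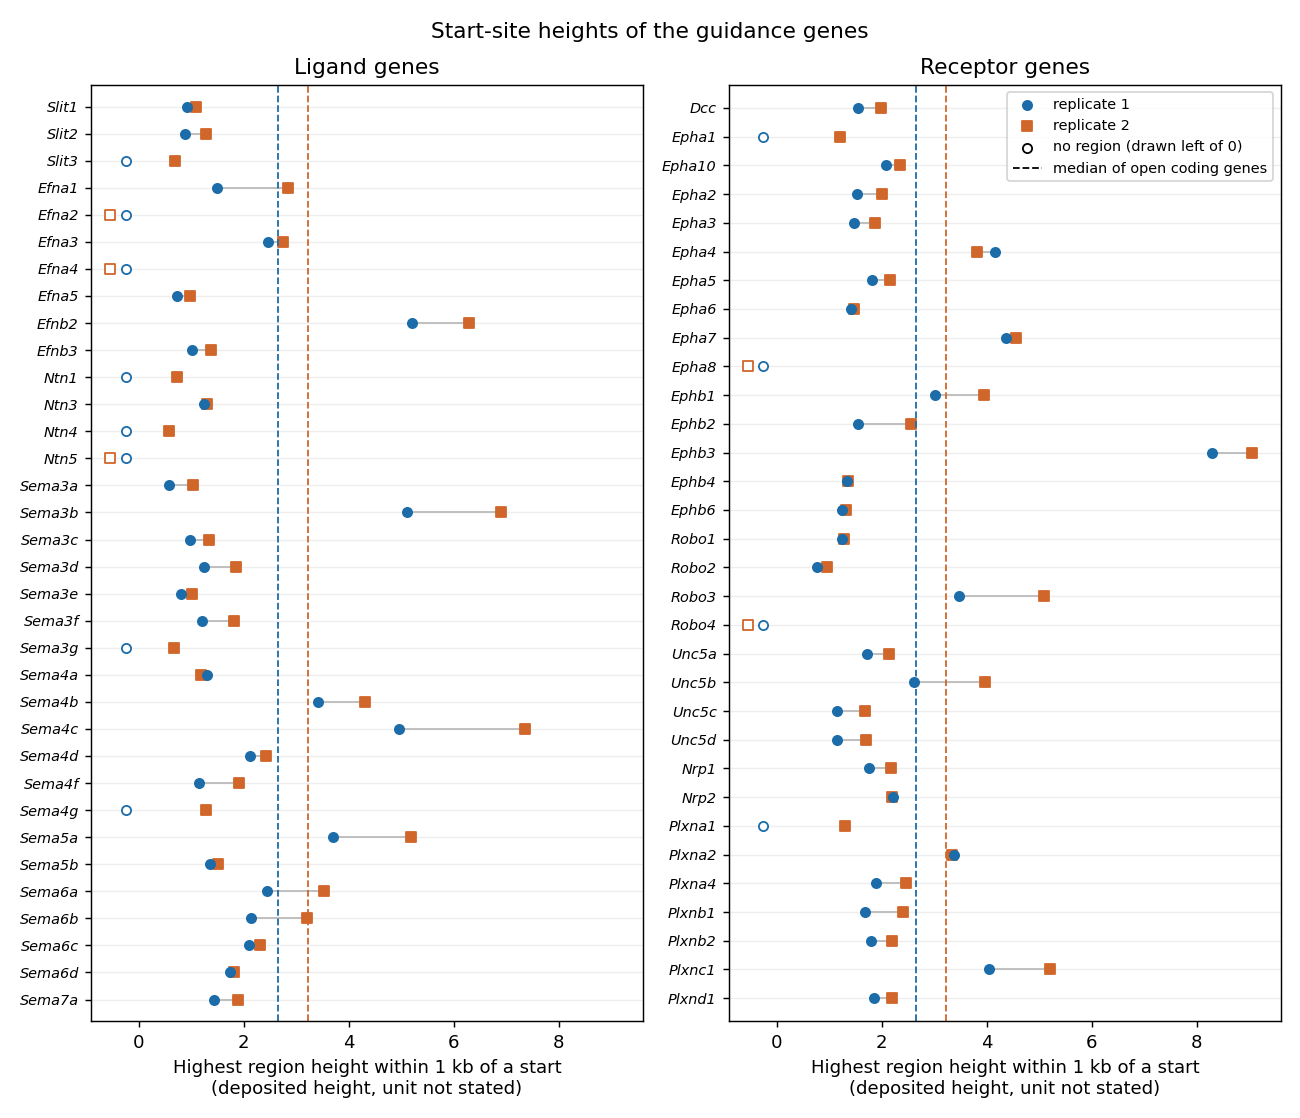
Highest region height within 1000 bp of a start for each of the 34 ligand genes (left) and 32 receptor genes (right), in the deposited height whose unit is not stated; circles are replicate 1, squares replicate 2, open symbols left of 0 mark no listed region, and dashed lines are the medians of all open coding genes. Most genes lie left of the lines, and Ephb3 at 8.30 and 9.05 is farthest right.

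Among the ligands, 26 of 34 were open in both libraries (76.5%), and 18 of those were semaphorins. Of the class 3 semaphorins, secreted repellents, 6 of 7 were open in both, with low medians of 1.09 and 1.33. Sema3a, which repels axons through neuropilin-1 and class A plexins, had heights of 0.585 in replicate 1 and 1.03 in replicate 2, at a group of starts 271 kb into its annotated locus that includes its coding starts. Sema3e, a ligand that can bind plexin-D1 directly, had 0.804 and 1.02, and Sema3c had 0.974 and 1.33. Both libraries place these 3 genes at percentile 17.0 or lower among open coding genes. Sema3d, with 1.25 and 1.86, and Sema3f, a neuropilin-2 ligand known for pruning hippocampal axons, with 1.21 and 1.82, stood little higher. The Sema3f value came from a noncoding start 25.7 kb into the gene. Its coding starts had no region in replicate 1 and 0.808 in replicate 2. Sema3g was open only in replicate 2 at 0.677, at a region that also lies within the start window of Nisch.

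Sema3b was the exception in its class, with 5.11 and 6.90, at percentiles 84.7 and 92.6. Its region lay at the start of a noncoding, intron-retaining transcript 7.06 kb inside the gene, and neither library had a region at any of its coding starts. The height therefore does not describe a coding promoter of Sema3b. The letters under that region are given with the CTCF matches below.

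Membrane-bound and other semaphorins of classes 4 to 7 were open in 12 of 13 cases, with medians of 2.11 and 2.31, above those of class 3 in both libraries. Sema4c led with 4.96 and 7.36, followed by Sema5a, a thrombospondin-repeat semaphorin that both attracts and repels, with 3.70 and 5.18. The Sema5a value came from a noncoding start next to the coding ones, where the heights were 0.823 and 1.03. Sema4b had 3.41 and 4.32. Of the transmembrane class 6 members, which act through plexin-A2 and plexin-A4 on mossy fibres, Sema6a had 2.44 and 3.53 and Sema6b 2.14 and 3.20, while Sema6c had 2.10 and 2.31. Sema6d, a plexin-A1 ligand, had 1.74 and 1.82 at starts 520 kb downstream of its first start, where the heights were 0.924 and 1.08. Sema4d, a plexin-B1 ligand, had 2.12 and 2.43 at a noncoding start 16.6 kb into the gene, and its coding starts had no region in replicate 1 and 1.53 in replicate 2. The lower members were Sema7a, a lipid-anchored plexin-C1 ligand, with 1.43 and 1.90, Sema5b with 1.36 and 1.51, Sema4a with 1.30 and 1.18, and Sema4f with 1.14 and 1.91. Sema4g was open only in replicate 2, at 1.28.

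Ephrins split sharply. Efnb2, a transmembrane ephrin that can also signal backwards into its own cell, had 5.21 and 6.30 at a CpG-rich coding start at chr8:8661221-8661440, at percentiles 85.5 and 89.1. The start of the gene 4921522P10Rik falls in the same window. Efnb3, the other transmembrane ephrin, had only 1.02 and 1.37. Of the lipid-anchored A-class ephrins, Efna3 had 2.46 and 2.75, Efna1 1.50 and 2.85, and Efna5 0.723 and 0.983. Efna1 thus differed between libraries by more than most members, and Efna5 was low in both although it had 5 and 6 regions in its start windows. Efna2 and Efna4 were in neither shorter list at their starts, but the longer list placed Efna4 at 0.779 and 0.874 and Efna2 at 0.852 in replicate 2 alone.

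Slits and netrins were among the lowest ligands at their starts by region height. The number of bases in their start windows listed by the deposited false discovery rate was mixed. In replicates 1 and 2 it was 1547 and 3018 for Slit2, 158 and 2140 for Slit3, and 291 and 318 for Slit1. For the netrins it was 86 and 2188 for Ntn1, 1175 and 1819 for Ntn3, 0 and 1008 for Ntn4, and 40 and 371 for Ntn5. Slit1 and Slit2, large secreted repellents, had 0.918 and 1.09 and 0.880 and 1.28. Slit3 was open in replicate 2 only, at 0.688. Of the netrins, laminin-related secreted cues, just Ntn3 was open in both libraries, at 1.24 and 1.31, and its region is shared with the start window of BC028777. Ntn1 and Ntn4 were open in replicate 2 only, at 0.737 and 0.568. Ntn5 had no region within its start windows in the shorter or the longer list. A region of both libraries at chr7:45682821-45683020, with 2.43 and 4.06, ended just outside the window, its middle 1.10 kb upstream of the Ntn5 start. Its closed call thus depends on the edge of the window. These low start heights contrast with the rich distal regions of several of the same genes described further on.

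Receptor genes were open in both libraries in 28 of 32 cases (87.5%), with medians of 1.78 and 2.18. All 7 plexins, the semaphorin receptors, had a region in at least replicate 2. Plxnc1 had the highest value, 4.04 and 5.21, but at the start of a noncoding transcript 115 kb into the gene, and its first coding start had 1.13 and 1.77. Among class A plexins, Plxna2, a receptor for class 6 semaphorins on mossy fibres, had 3.38 and 3.34, Plxna4 had 1.90 and 2.46, and Plxna1 was open only in replicate 2 at 1.31. Plxnb1, Plxnb2 and Plxnd1 lay close together at 1.68 and 2.40, 1.79 and 2.19, and 1.86 and 2.19. The neuropilins, ligand-binding co-receptors, were also alike, Nrp1 with 1.77 and 2.18 and Nrp2 with 2.22 and 2.20.

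Eph receptors spanned the whole range. Ephb3 stood highest of all 66 genes with 8.30 and 9.05, at percentile 98.3 in both libraries, and its second start group 5.77 kb downstream also carried regions, of 2.99 and 2.45. Ephb1 followed among the B class with 3.02 and 3.96, then Ephb2, a synaptic receptor that interacts with NMDA receptors, with 1.56 and 2.57. Ephb4, best known from veins, had 1.35 and 1.36, and Ephb6, which lacks kinase activity, had 1.24 and 1.32. All 5 B-class receptors were open in both libraries.

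Of the 9 A-class receptors, 7 were open in both. Epha7 had 4.37 and 4.56, with 6 and 5 regions near its starts, and Epha4, a receptor for both ephrin classes found on dendritic spines, had 4.17 and 3.82. These 2 genes were clearly above the rest of the class in both libraries. The next were Epha10 with 2.09 and 2.35, Epha5 with 1.82 and 2.17, Epha2 with 1.53 and 2.00, Epha3 with 1.48 and 1.87, and Epha6 with 1.41 and 1.47. Epha1 was open only in replicate 2, at 1.20. Epha8 was in neither shorter list, and the longer list gave it 0.528 and 0.584.

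Among Robo receptors, Robo3, which modulates Slit repulsion in commissural neurons before midline crossing, was the highest with 3.48 and 5.09. That region lay at its second start group, 3.11 kb into the gene, which includes a coding start. At the first Robo3 start there was no region in replicate 1 and one of 1.58 in replicate 2. Robo1 had 1.25 and 1.29 and Robo2 0.773 and 0.961, close to the low values of the Slits themselves. Robo1 was closed at its first starts and open at a group of starts 355 kb into the gene, which includes coding starts. Robo4, the endothelial member, had no region at its starts in any list. Its locus held 1 shared distal region, of 1.33 and 1.86, which also falls in the locus of the neighbouring Robo3. The netrin receptors among the members were all open: Unc5b at 2.62 and 3.97, Unc5a at 1.73 and 2.15, Dcc at 1.55 and 1.99, Unc5d at 1.16 and 1.71 and Unc5c at 1.16 and 1.69. Thus each of these netrin receptor genes was open in both libraries while 1 of 4 netrin genes was.

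Starts within a gene were not equally accessible. Of the 66 first start groups (starts less than 2000 bp apart were joined), 48 had regions in both libraries, as had 15 of the 115 later groups. Only 9 of the 47 members with several groups were open at 2 or more of them: Epha7, Ephb3, Plxna4, Plxnb1, Plxnc1, Sema4b, Sema4f, Sema6b and Sema6d. For 7 members the highest region lay at no coding start in one or both libraries, namely Epha6, Plxnc1, Sema3b, Sema3f, Sema4d, Sema4f and Sema5a. With coding starts alone, a setting chosen after seeing the data, 51 members (77.3%) were open in both libraries against 59.0% of coding genes.

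Footprints were listed within the start windows of 61 of the 66 members in both libraries (92.4%), against 64.3% of coding genes. For loci of 200 kb or more the shares were 100% and 90.8%, and for shorter loci 88.9% and 62.8%. Ephb3 held 14 in replicate 1 and 22 in replicate 2, and Epha7 held 25 and 10. Slit3 held 1 and 20 and Ntn1 1 and 16, the larger number in each being in replicate 2, the library in which the gene was open. Robo4 had 0 in both. Replicate 2 listed more footprints in all, 338131 against 221089, and the part of depth in these counts was not tested.

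The closed members had a higher median CpG content than closed genes in general, which was not tested. The observed over expected CpG ratio within 500 bp had a median of 0.695 in the 54 members open in both libraries, close to the 0.726 of all such coding genes. In the 7 members open in replicate 2 only the median was 0.657, where 1003 such coding genes had 0.495. The 5 members open in neither had 0.602, whereas the 7147 coding genes in that state had 0.177. The 5 members open in neither are few and ranged from 0.162 to 0.882. Efna2 (0.865), Efna4 (0.602) and Epha8 (0.882) had the CpG-rich promoter type, which in other genes went with an open start. The longer list gave each of these a region in at least replicate 2. Ntn5 (0.184) and Robo4 (0.162), without a region in any list, were near the 0.177 of closed coding genes.

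The letters in the promoter regions also differed from the usual mix. Motifs were sought on both strands in the 200 bp around the middle of each start region, over 107 member regions and 18811 regions of all genes. SP/KLF letters (GGGCGG) occurred at 52.3% of the members' regions and 52.0% of all. ETS letters (CCGGAAG) occurred at 2 of the 107 (1.87%) against 11.0%, and NRF1 (GCGCATGCG) and YY1 (AAGATGGCG) at 0 of 107, which allows up to 2.80%, against 2.50% and 1.92%. Any of these 3 was found at 1.87% against 14.6%. The ASCL E-box (CAGCTG) was at 16.8% against 12.2% and CCAAT at 21.5% against 26.9%. No test was made of these differences, and regions of 1 gene share a locus.

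Away from starts, 196 accessible regions present in both libraries and not within 1000 bp of any gene's start lay in the loci of the guidance genes. At least 1 was found in 54 of 66 members (81.8%), against 45.5% of all coding genes, and the median per locus was 2 against 0. In loci under 200 kb the shares with at least 1 were 73.3% and 43.1%. Pooled over locus length, members had 1.50 such regions per 100 kb against 1.38. For loci under 200 kb the densities were 2.68 and 1.52, and in longer ones 1.13 and 1.07. Counting each gene and region pair, 132 lay in introns, 19 in exons, 25 in the upstream and 21 in the downstream flank. Their median heights of 1.15 and 1.31 were near the 1.05 and 1.28 of all 26224 shared distal regions, and 177 (90.3%) held a footprint found in both libraries, against 88.8%.

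**Figure D3:**
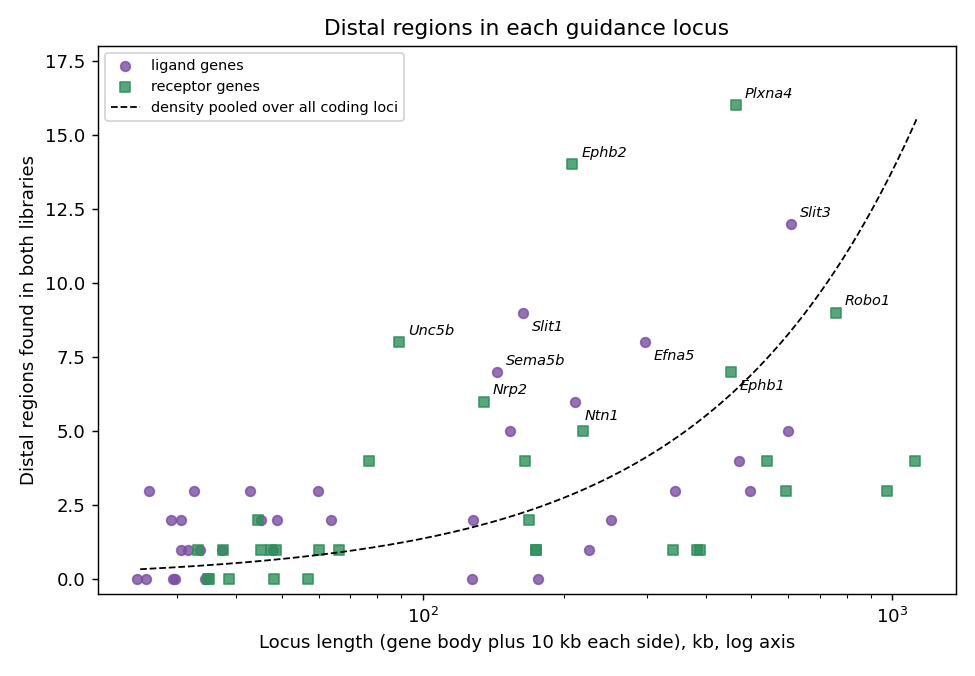
Number of distal regions found in both libraries (vertical axis) against locus length in kb on a log axis for each of the 66 guidance genes; circles are ligands, squares receptors, and the dashed line is the density pooled over all coding loci, 1.38 per 100 kb. Plxna4 with 16 and Ephb2 with 14 are highest, and Unc5b has 8 in a locus of 89.0 kb.

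The regions were concentrated: 11 members with 6 or more held 102 of the 196 (52.0%). Plxna4, a receptor for class 3 and class 6 semaphorins at chr6:32144268-32588192, had 16 shared regions, of 19 in replicate 1 and 30 in replicate 2. Ephb2, at chr4:136647539-136835988, had 14, of 14 and 25, and Slit3, at chr11:35121224-35708507, had 12, of 13 and 35. Robo1 and Slit1 had 9 each, Efna5 and Unc5b 8, Ephb1 and Sema5b 7, and Ntn1 and Nrp2 6. By density Efnb3 led with 11.5 per 100 kb from 3 regions, followed by Sema3g with 9.23, Unc5b with 8.99, Sema7a with 7.02, Efna3 with 6.88 and Ephb2 with 6.72. The 3 Efnb3 regions all lay in the downstream flank, in a locus of 26.1 kb that also overlaps Dnah2 and Wrap53. Those of Sema3g lay in both flanks and an intron. At the other end 12 members had none, among them Ephb3 and Sema4c, both with high starts.

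Slit1, Slit3, Ntn1 and Efna5 joined a start of low height to 1 or more higher distal regions. Slit3 had no start region in replicate 1, yet an intronic region at chr11:35587221-35587440, 466 kb from the first start, had 2.28 and 3.51. The nearest upstream region, 1.64 kb before the start, had 1.35 and 2.61. Slit1, whose start reached 0.918 and 1.09, had 2.11 and 3.34 in an intron at chr19:41656081-41656280 and 2.45 and 1.79 at 2.49 kb upstream. Efna5 had a start height of 0.723 and 0.983, and 1.83 and 3.26 at chr17:62884221-62884440, 3.01 kb upstream, where 5 regions lay within 1.36 to 3.01 kb of the start. It also had 1.73 and 2.93 in an intron 97.2 kb inside. For Ntn1 the strongest was 7.54 kb upstream, with 1.55 and 1.94. In these 4 genes the heights given exceeded the gene's own start height in each library that listed a start region. The pattern was not particular to them. Sema4a, with a start of 1.30 and 1.18, had a distal region of 2.92 and 4.60. Sema7a, with a start of 1.43 and 1.90, had one of 2.44 and 4.07. The share of genes with a distal region above their start was not counted, over members or over all coding genes. Slit2 differed: the highest of its 3 distal regions, with 0.936 and 1.29, was about level with its start at 0.880 and 1.28, and the others were lower.

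In Plxna4 most of the 16 were weak and intronic, 15 of them inside the gene. The highest was 3.38 kb upstream at chr6:32591481-32591660, with 2.36 and 3.35, and the next, 191 kb into the gene, had 2.39 and 2.43. A group of 8 lay between 182 and 232 kb from the start. Robo1 had its highest distal region, of 2.13 and 2.49, over an exon 672 kb from its first start. Unc5b, at chr10:60762593-60831581, combined a start of 2.62 and 3.97 with a region of 4.18 and 5.08 just beyond its end. Nrp2 had 2.69 and 2.41 at 2.03 kb upstream and 2.30 and 3.41 in an intron at 83.2 kb, both near or above its start values. In these loci the same regions were high in both libraries.

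**Figure D4:**
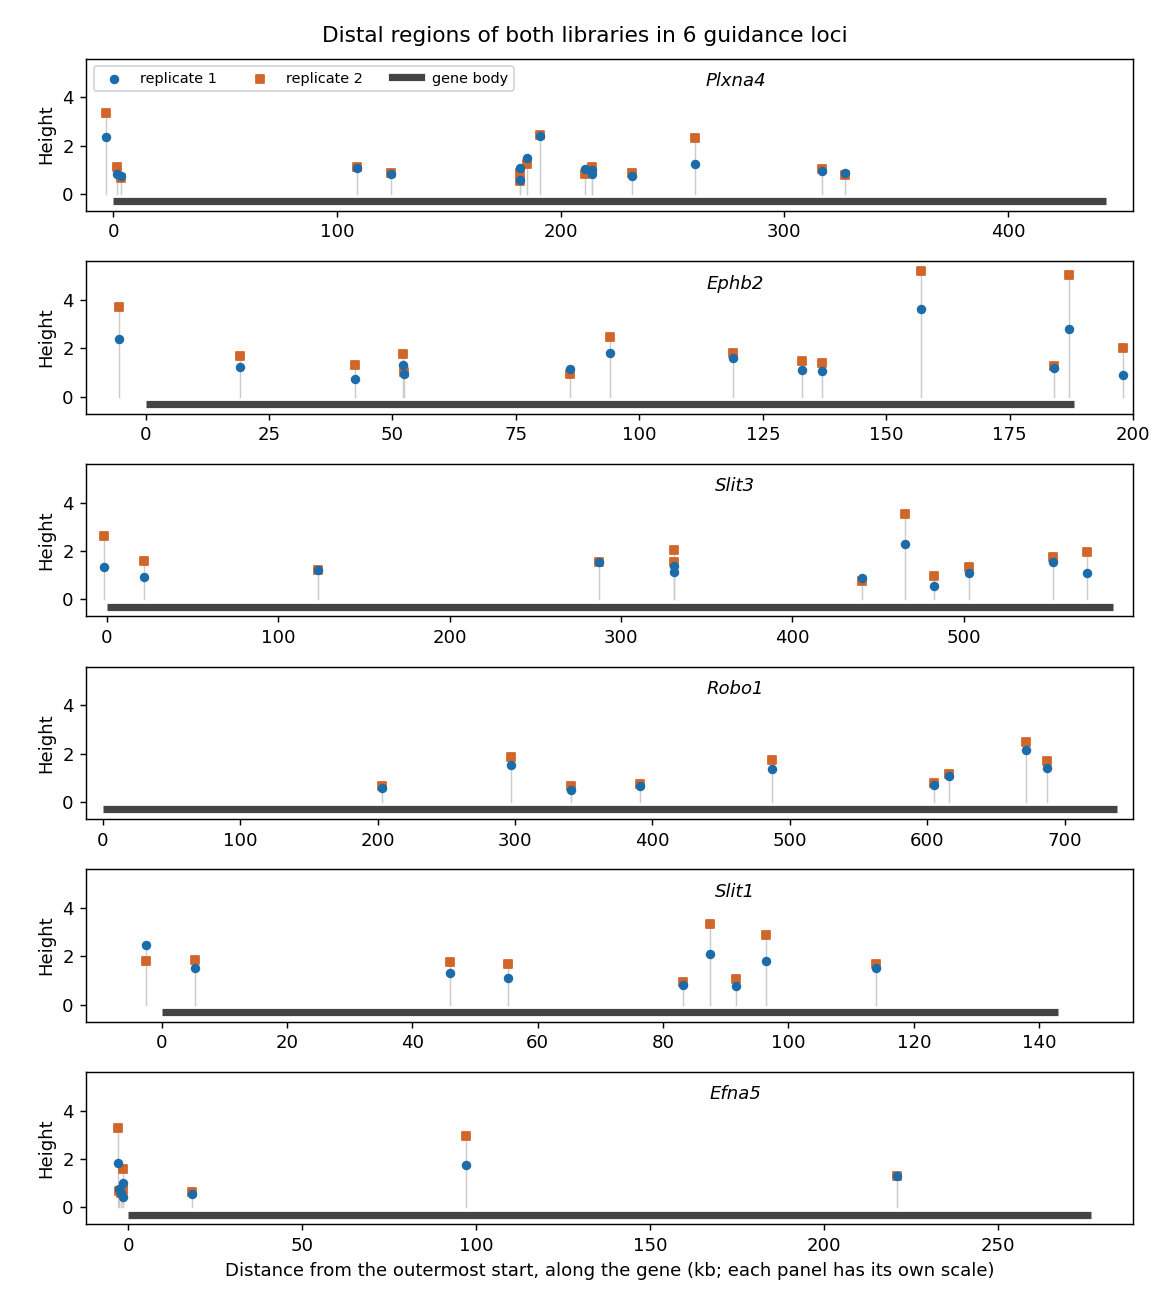
Heights (vertical axis, deposited unit not stated) of the distal regions found in both libraries, by distance in kb from the outermost start, for the 6 guidance loci with the most of them (Unc5b equals Efna5 with 8 and is not drawn); circles are replicate 1, squares replicate 2 and the bar is the gene body, each panel with its own distance scale. The strongest regions of Ephb2, of 3.63 and 5.19 and of 2.78 and 5.03, lie toward the end of the gene, and 8 of the 16 of Plxna4 lie between 182 and 232 kb.

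The highest distal regions mostly held the letters of a CTCF site. The 6 highest were upstream of Sema3b (5.62 and 7.75, 3.59 kb before the outermost start) and Epha4 (4.15 and 5.58, 1.32 kb before it), past the end of Unc5b (4.18 and 5.08), at 2 places in Ephb2 (3.63 and 5.19 in an intron, 2.78 and 5.03 over an exon) and upstream of Sema4a (2.92 and 4.60). All but the Sema4a region matched the site of CTCF, a zinc finger protein that helps fold chromosomes into loops, with at most 1 mismatch, and each match lay within the joint span of overlapping footprints of both libraries. High distal regions often did: of the 985 shared distal regions of all genes at least as high as the sixth, 605 (61.4%) held such a match, against 35.9% of all 26224 and 59 of 196 (30.1%) around guidance genes. Allowing 1 mismatch was chosen after seeing the data. The match is shown in capitals within 43 bases, as Sema3b chr9:107612819-107612861, Epha4 chr1:77516430-77516472 and Unc5b chr10:60760626-60760668 on the minus strand and Ephb2 chr4:136678624-136678666 on the plus strand. The Unc5b site has no mismatch and the others have 1.
Sema3b, upstream: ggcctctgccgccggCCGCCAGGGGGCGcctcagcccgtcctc
Epha4, upstream: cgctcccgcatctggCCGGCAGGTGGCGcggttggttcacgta
Unc5b, downstream: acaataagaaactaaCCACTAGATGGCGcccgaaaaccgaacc
Ephb2, intron: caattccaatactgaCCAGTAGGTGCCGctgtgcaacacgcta

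CTCF-like letters also lay under 10 of the 54 highest start regions. In 5 of the 10, at Epha5, Plxna2, Sema3b, Sema3f and Sema5a, the nearest start was noncoding, as it was for 19 of the 54 regions in all. The highest regions of Epha5 and Plxna2 lay within 1000 bp of a coding start as well. All of these matches have 1 mismatch, and all but that of Epha5 lay within such a joint span. Those of Sema3b (chr9:107602206-107602248, plus strand) and Sema5a (chr15:32246161-32246203, plus strand) are shown, as the highest of the 3 whose region lay at no coding start. Over all start regions, 14 of 107 members' regions (13.1%) held such letters against 8.04% of all.
Sema3b, internal start: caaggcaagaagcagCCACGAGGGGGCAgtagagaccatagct
Sema5a, noncoding start: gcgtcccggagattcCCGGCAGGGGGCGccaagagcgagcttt

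Beyond CTCF, distal letters near guidance genes resembled those of distal regions in general. The NEUROD E-box (CAGATG), of neuronal basic helix-loop-helix factors, was found in 49 of 196 (25%) against 23.1%, the ASCL E-box in 24.0% against 19.9% and the NFI letters TTGGCA in 23.5% against 21.6%. An RFX match was found in 6 (3.06%) against 0.919%. Where the NEUROD letters occurred anywhere in the member regions, they lay within such a joint span at 13 of 57, against 27.3% of all. The exact CTCF match did so at 26 of 26, against 98.1%. How many of the 13 also lay inside a CTCF match was not counted. The NEUROD letters of the Ephb2 example below do lie inside letters that match the CTCF site with at most 1 mismatch. That example therefore cannot tell a NEUROD footprint from a CTCF footprint. An example each of the NEUROD and the SP/KLF letters within footprints is shown, in capitals, from an upstream region of Ephb2 (chr4:136841252-136841356, minus strand, region heights 2.38 and 3.72) and from an intron of Efna3 (chr3:89317029-89317116, plus strand, 3.10 and 3.44).
Ephb2, NEUROD letters: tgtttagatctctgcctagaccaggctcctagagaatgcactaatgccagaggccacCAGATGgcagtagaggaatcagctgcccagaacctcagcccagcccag
Efna3, SP/KLF letters: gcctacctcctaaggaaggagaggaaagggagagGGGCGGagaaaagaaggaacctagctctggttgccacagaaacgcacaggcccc

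The intracellular partners, co-receptors and further cues of these pathways were mostly open. Of 75 effectors, co-receptors and further cues, 70 were open in both libraries (93.3%, against the 60.5% of all coding genes), 4 in replicate 2 only (Cntn2, Draxin, Dscam and Rtn4r) and Flrt1 in neither. These genes had a median of 6 annotated starts and a median locus of 117 kb, against 3 and 37.6 kb over all coding genes. Their median heights were 2.35 and 2.87, and 30 of 70 and 34 of 74 stood above the medians of open coding genes, while 14 and 18 lay below the lower quartiles. The members' medians were 1.70 and 1.99, and the difference was not tested. Each side had higher medians than the members in both libraries. The netrin-side genes came closest in replicate 2, with 2.18 in replicate 1 and 2.03 in replicate 2. On the semaphorin side 17 of 18 were open, among them Dpysl3, a collapsin response mediator protein, with 4.76 and 6.10, and the neuronal kinase gene Cdk5 with 6.19 and 5.98. On the ephrin side all 16 were open, with Pick1, a PDZ protein, at 6.62 and 8.25 and Nck1, an adaptor, at 6.71 and 7.65. All 7 on the Slit and Robo side were open, with Srgap2, a GTPase activating protein that binds Robo receptors, at 7.13 and 5.96. On the netrin side 16 of 18 were open, including Trio, a guanine nucleotide exchange factor that acts with DCC, at 6.67 and 8.10, and Rgmb, a ligand of the DCC relative neogenin, at 7.05 and 6.41. Low values occurred as well, as in Vav3, an exchange factor for small GTPases, with 0.490 and 1.05 and Ntng1, a membrane-anchored netrin relative, with 0.572 and 0.721. Among small GTPases of the growth cone, Rhoa had 5.82 and 4.57, Rac1 3.75 and 6.04 and Cdc42 5.93 and 6.05. Several values among these genes were higher in replicate 1, as for Srgap2 and Rhoa.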

How the data were processed

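DNase-seq libraries from 2 samples of 1 group were used. Coordinates are on mm10, per the labels. Aligner, peak caller and depth are not stated in the sources. The authors deposited, per library, a shorter and a longer region list with a signal height per region (unit not stated), footprints with a p-value of 0.01 in every row, and false discovery rates (adjusted p-values) per base, listed up to 0.05. Reads of a hybrid aligned to 1 parental reference can lose fragments of the other parent.

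Starts and exons came from GENCODE M21 and bases from GRCm38. Regions of the shorter list on chromosomes 1 to 19 were intersected with windows of 1000 bp around starts and with gene bodies plus 10 kb; libraries share a region at 1 bp of overlap. The interval code was tested on simulated data against a direct count. Every member is accounted for; named with values by rule were those open in 1 library or neither, the 10 highest starts, the 10 with most distal regions, the 5 densest, those open at several starts, and each family's highest and lowest. The members and lists were chosen with earlier results of these data known. Python 3.11.15 with numpy 2.4.6, pandas 2.3.3 and matplotlib 3.10.9 was used. Alternatives were the longer list, the higher 50% of each list by height, other windows, flanks and overlaps, and leaving out each library. No test was made, because there is 1 group.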

Additional observations from a re-analysis of the deposited data

How the results depend on the processing

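The count of guidance genes open in both libraries, 54, ranged from 46 to 61 over the alternatives tried, and that of the effector genes from 60 to 74 around 70. The members' share stayed above that of all coding genes in each, from 69.7% against 52.0% with the higher 50% of each list to 92.4% against 65.7% with the longer list. The number open in a single library, 7, was 3 with the longer list. The number open in neither, 5, was 2 with the longer list, 13 with the higher 50% of each list, 3 with windows of 2500 bp, 8 with the outermost start only, and 5 to 12 when each replicate was left out. The count of genes open in neither thus rests on replicate 2: without it, 12 genes were closed. Shared distal regions, 196, numbered 354 with the longer list, 101 with the higher 50%, and 224 to 343 when each replicate was left out, the cause being that 1 library lists more regions than 2 share. Their median per locus, 2, was 4 with the longer list, 1 with the higher 50%, 1 without flanks, 3.50 with flanks of 50 kb, 1 when 50% of each region had to overlap, and 2 to 3 when each replicate was left out. No paired analysis was possible because there is only 1 group. Depth and the scaling of heights are unknown, and the part of depth in the calls of replicate 2 alone was not tested.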
